A study of Mus musculus with 6 samples.

Results

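The 39 genes described here are genes of macrophages and other white blood cells, and they were read in cultures of mouse primary myoblasts, the muscle progenitor cells that grow out of digested muscle. They were listed by name for what leukocytes are known to express, with earlier results of these data known, and all 39 were found among the 54532 genes of the count table. Bulk RNA-seq was available for 3 WT libraries and 3 libraries labelled eIF5A-KO, each numbered 1 to 3. The cells came from the hind-limb muscles of mice that were 3 weeks old, were grown in serum with FGF under proliferation conditions, and were collected at day 2. The labels give the genotypes as WT and as eIF5A knockout. In the study the knockout mice carry floxed eIF5A and a tamoxifen-inducible Cre, CreERT2, driven by Pax7, so that the deletion is directed to satellite cells and not to leukocytes. The study gives its WT controls as mice with the Pax7-driven CreERT2 and no floxed gene in one place and as mice with floxed eIF5A and no Cre in another, and calls them littermates. No cell sorting is described for these cultures, and nothing in the labels says whether the 3 libraries of a genotype came from separate mice or separate cultures, so that p-values measure only the spread between these libraries.

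Macrophages are resident in skeletal muscle and enter it in large numbers after injury, where they clear dead fibres and signal to satellite cells. Enzymatic digestion of muscle releases them together with the progenitors, and they attach to culture plastic. Their shared programme depends on the transcription factor PU.1, the product of Spi1, and on the growth factor receptor encoded by Csf1r. It includes lysosomal enzymes, Fc receptors, the ITAM adaptors Fcer1g and Tyrobp, the 3 chains of complement C1q, and receptors that bind microbes and dying cells. In bulk RNA, a lower number of cells of a type and less of its RNA per cell cannot be told apart.

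Total counts were 16281216 to 17734551 per library. The 39 genes together held 2861 to 7394 of these counts, or 0.0172 to 0.0417 percent. Eif5a, the targeted gene, was at 1600.6, 984.64 and 1236.5 CPM in the WT libraries and at 1362.7, 1457.5 and 1057.9 CPM in the libraries labelled eIF5A-KO (CPM, counts scaled to a common library total with TMM factors). Its transcript level therefore did not set the genotypes apart, with a log2 fold change of 0.02 (edgeR, adjusted p = 0.993), and the genotypes are used as labelled. The study judged its knockout mice established from RT-PCR and immunostaining of satellite cells, and shows an eIF5A western blot of such cells. Those are other measures than the counts given here. Myod1, a defining myoblast gene, was at 104.68 to 292.4 FPKM (a level per base of gene length, so that genes can be compared), so that the labelled cell type carried its marker in each library.

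Promoters were searched for the core sequence that PU.1 is known to bind, because PU.1 is the factor that macrophage genes share. The letters searched were GAGGAAGT and, for the other strand, ACTTCCTC, within the 250 bases before each start in RefSeq's GRCm38.p6 annotation. They were in 2 of 34 member promoters (29 genes matched by symbol), or 5.88 percent, against 802 of 32851 promoters, or 2.44 percent. They are shown because the genes they belong to follow different libraries, S100a8 being highest in WT replicate 2 and C1qc in eIF5A-KO replicate 1. The windows are S100a8, at chr3:90668873-90668932 on the plus strand with the motif 172 to 165 bases before the start, and C1qc, at chr4:136893076-136893135 on the minus strand with the motif 195 to 188 bases before the start. Both are written 5′ to 3′ along the gene's strand, with the motif in capitals, and in both it is the letters of the other strand that match.
S100a8: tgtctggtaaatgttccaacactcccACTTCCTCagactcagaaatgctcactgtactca
C1qc: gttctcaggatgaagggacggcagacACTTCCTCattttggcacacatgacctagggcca
A match is a description of the letters and does not show binding.

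**Figure D1:**
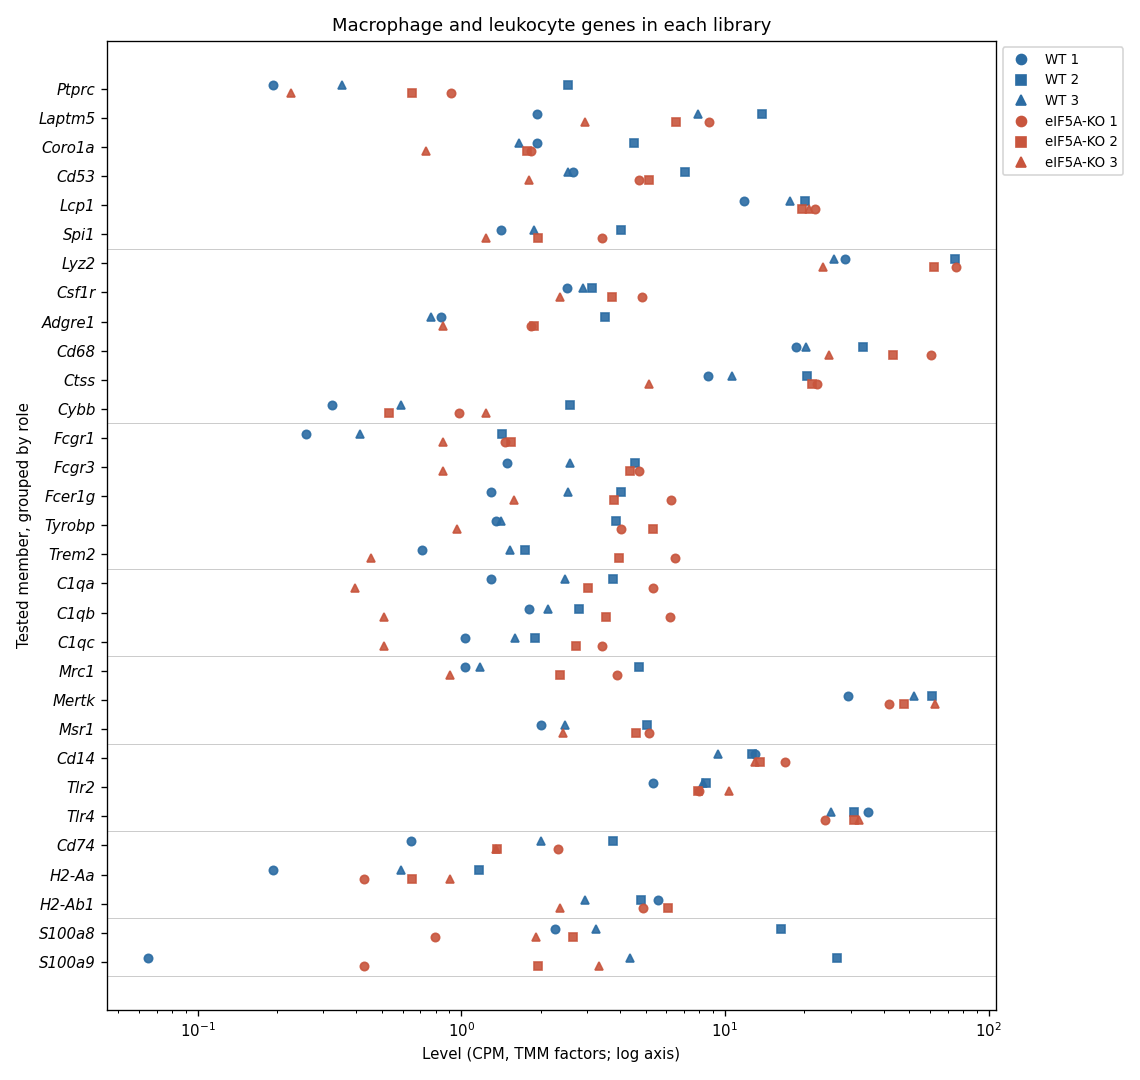
Level of each of the 31 tested members in each library, in CPM on a log axis, with circles, squares and triangles for replicates 1, 2 and 3 of WT (blue) and labelled eIF5A-KO (red); grey lines part the role groups. In most rows WT replicate 2 and eIF5A-KO replicates 1 and 2 lie to the right, and the genotypes overlap in every row. The lowest library is eIF5A-KO replicate 3 in 14 rows and WT replicate 1 in 13, against 14.6 and 27.9 percent of all tested genes.

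Leukocyte transcripts were present at low level and varied widely between libraries of 1 genotype. Of the 39 members, 31 had enough counts to be tested with edgeR, 20 with a positive and 11 with a negative log2 fold change of eIF5A-KO over WT, and none had an adjusted p under 0.05 (adjusted p = 0.608 to 1.00), against 0.0204 percent of all 14679 genes tested. DESeq2 and limma gave none either, and edgeR with no filter on low counts gave 4. The median log2 fold change of the tested members was 0.18, and that of all tested genes was -0.01. At an unadjusted p under 0.05 there were 2 members, against 6.76 percent of all genes: Cd68 higher, where the background in that direction was 2.74 percent, and S100a8 lower, where it was 4.02 percent. In none of the 31 tested members did the 3 libraries of one genotype lie apart from the 3 of the other, whereas 12.5 percent of all genes had no overlap, 5.71 percent with higher and 6.79 percent with lower values in the libraries labelled eIF5A-KO. With the study's own criterion, a change over 2-fold with an unadjusted p under 0.05, 1 member was called, against 1.69 percent of all genes. Regardless of p, 3 members differed by more than 2-fold, against 2.16 percent of all genes. Leaving out 1 library moved the balance of signs: without WT replicate 2, 27 members had positive and 4 negative log2 fold changes, with 5 not overlapping against 26.1 percent of all genes, and without eIF5A-KO replicate 3, 10 of 32 did not overlap against 27.4 percent.

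The order of libraries recurred from gene to gene. The libraries and directions compared below were not set beforehand and follow the members' own values. The shares over all genes, taken for the same libraries, are therefore not an equal benchmark. WT replicate 2 was above both other WT libraries in 28 of the 31 tested members, or 90.3 percent, against 37.9 percent of all tested genes. Replicate 3 of eIF5A-KO was below both other libraries of its genotype in 23 members, or 74.2 percent, against 39.4 percent of all genes. The median member was 2.66-fold higher in WT replicate 2 than in WT replicate 1 and 2.44-fold higher in eIF5A-KO replicate 1 than in eIF5A-KO replicate 3. The median over all genes was 1.00 and 1.01 for these ratios, which the scaling with TMM factors brings about by itself. Summed over the 39 genes, the level was 184.67, 391.46 and 221.05 CPM in the WT libraries and 354.36, 318.45 and 224.53 CPM in the libraries labelled eIF5A-KO, with means of 266 ± 110 and 299 ± 67.0 (SD, n = 3 each). The span within WT alone covers the whole range of the libraries labelled eIF5A-KO. The median member spanned 2.83-fold within WT and 2.75-fold within eIF5A-KO, and its genotype means differed by 1.27-fold. For all tested genes these values were 1.52, 1.33 and 1.14. In 26 members, or 83.9 percent, the genotype means differed by a smaller factor than either genotype spanned, as they did in 71.9 percent of all genes. A range over 3 libraries and a ratio of means are not on equal terms, so the members' share is to be read against that of all genes. Members and all genes were not matched for level, and counting error widens the range of a gene at low level.

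**Figure D2:**
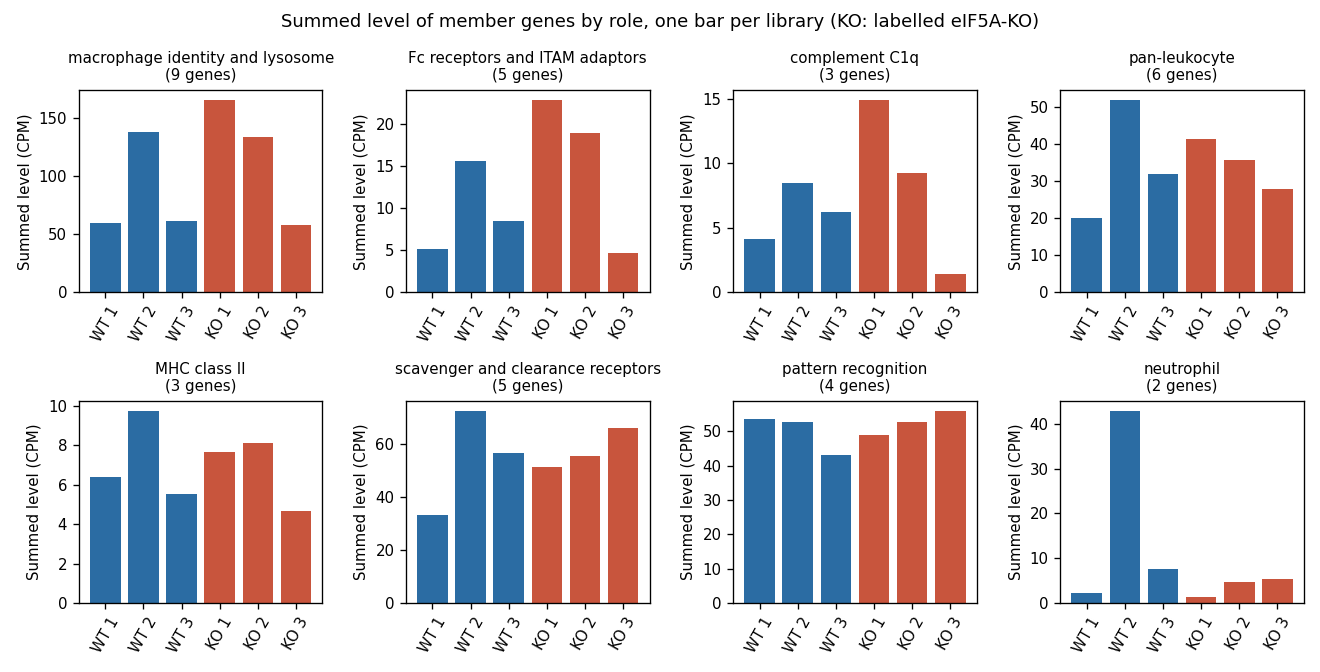
Summed level in CPM (vertical axes, from 0, each with its own scale) of the members in 8 role groups, with 1 bar per library, WT in blue and labelled eIF5A-KO in red. C1q, Fc receptor and macrophage identity sums are lowest in eIF5A-KO replicate 3, the neutrophil sum reaches 42.9 CPM in WT replicate 2 alone, and the pattern recognition sums lie between 43.0 and 55.9 CPM.

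Among the pan-leukocyte genes, the phosphatase CD45, which defines blood-derived cells and is encoded by Ptprc, had few counts. Ptprc had 3, 48 and 6 counts in the WT libraries and 15, 11 and 4 in those labelled eIF5A-KO, where 3 counts correspond to 0.159 to 0.194 CPM. The WT libraries were at 0.194, 2.54 and 0.354 CPM and the others at 0.917, 0.651 and 0.226 CPM, so that WT replicate 2 stood above all the others. The log2 fold change was -0.72 ± 0.88 (SE; edgeR, adjusted p = 0.935) and was 0.85 without WT replicate 2. Laptm5, a lysosomal membrane protein of blood cells, was at 1.94, 13.8 and 7.90 CPM in WT and at 8.68, 6.51 and 2.94 CPM in the libraries labelled eIF5A-KO. Its log2 fold change of -0.38 (edgeR, adjusted p = 0.954) also turned positive, to 0.28, without WT replicate 2. Lcp1, the actin-bundling protein L-plastin, differed least among libraries, with 11.8, 20.1 and 17.6 CPM in WT and 21.9, 19.6 and 20.8 CPM in the libraries labelled eIF5A-KO (log2 fold change 0.33, edgeR, adjusted p = 0.873). Of the 6 pan-leukocyte genes, Lcp1 was the 1 with a positive log2 fold change, the other 5 were between -0.86 and -0.08, and none had an unadjusted p under 0.05. Spi1, named here after its values were seen, was at 1.42, 4.02 and 1.89 CPM in WT and 3.42, 1.95 and 1.25 CPM in the others, highest in WT replicate 2 and lowest in eIF5A-KO replicate 3, with a log2 fold change of -0.15 that was 0.39 without WT replicate 2.

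The macrophage identity and lysosome group held the most abundant members. Per gene length, Lyz2, the lysozyme of macrophages and neutrophils, had the highest mean over the 6 libraries at 36.4 FPKM, followed by the lysosomal glycoprotein Cd68 at 26.5 FPKM. Lyz2 alone accounted for 10.5 to 21.1 percent of the counts of the 39 genes in a library. Its level was 28.6, 74.5 and 25.9 CPM in WT and 74.9, 62.3 and 23.6 CPM in the libraries labelled eIF5A-KO. A high group of WT replicate 2 with eIF5A-KO replicates 1 and 2 and a low group of the other 3 libraries thus cut across the genotypes. The log2 fold change was 0.32 ± 0.48 (SE; 95% CI -0.77 to 1.40; edgeR, adjusted p = 0.953). On the FPKM scale the means were 32.4 ± 20.6 and 40.5 ± 20.2 (SD, n = 3 each), with p = 0.9 in an exact two-sided permutation test whose smallest possible p is 0.1. Without WT replicate 2 the log2 fold change of Lyz2 was 0.97, and without eIF5A-KO replicate 1 it was 0.01. Lyz1, a neighbouring gene 95.8 percent identical to Lyz2 over 1264 aligned bases, had 0 to 12 counts.

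Cd68 was the 1 tested gene of this group with an unadjusted p under 0.05. It was at 18.6, 33.4 and 20.3 CPM in WT and at 60.7, 43.5 and 24.9 CPM in the libraries labelled eIF5A-KO, with means of 24.1 ± 8.08 and 43.0 ± 17.9 (SD, n = 3 each). The genotypes overlapped, because eIF5A-KO replicate 3 lay below WT replicate 2. The log2 fold change was 0.83 ± 0.34 (SE; 95% CI 0.08 to 1.59; edgeR, unadjusted p = 0.0338, adjusted p = 0.675), and it was 0.51 without eIF5A-KO replicate 1 and 1.14 without WT replicate 2. Csf1r, the receptor for the macrophage growth factor CSF-1, was at 2.52, 3.12 and 2.89 CPM in WT and 4.83, 3.73 and 2.38 CPM in the others, with a log2 fold change of 0.34 (edgeR, adjusted p = 0.917). Csf1r overlaps Hmgxb3 on the opposite strand, with 873 bases of identical annotated sequence. Hmgxb3 had 595 to 1175 counts, and how reads in such stretches were assigned is not given in the sources used here. Adgre1, which encodes the macrophage surface antigen F4/80, was at 0.839, 3.49 and 0.767 CPM in WT and at 1.83, 1.89 and 0.849 CPM in the libraries labelled eIF5A-KO. Its log2 fold change was -0.16 (edgeR, adjusted p = 0.980) and 0.83 without WT replicate 2. Its sign was also positive with limma-voom, with limma on log2(FPKM + 0.1), with the replicate number as a block and without eIF5A-KO replicate 3. Ctss, the lysosomal protease cathepsin S, and Cybb, a subunit of the phagocyte oxidase, had log2 fold changes of 0.29 and -0.33. The value for Ctss was 0.01 without eIF5A-KO replicate 1 and 0.75 without WT replicate 2, and that for Cybb was 0.85 without WT replicate 2. The microglial and monocyte genes Aif1 and Cx3cr1 had at most 3 counts in a library, and Ccr2, the receptor that draws monocytes out of the blood, had 0 in all 6 libraries, which allows up to 0.159 to 0.194 CPM per library by counting error alone.

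The summed level of the Fc receptor and ITAM adaptor group was 5.10, 15.6 and 8.49 CPM in WT and 22.9, 19.0 and 4.70 CPM in the libraries labelled eIF5A-KO, a 4.88-fold difference between replicates 1 and 3 of eIF5A-KO. The lowest library was eIF5A-KO replicate 3 for Fcgr3, Tyrobp and Trem2 and WT replicate 1 for Fcgr1 and Fcer1g. All 5 genes had positive log2 fold changes, from 0.18 to 1.36, and none had an unadjusted p under 0.05. Fcgr3, a low-affinity IgG receptor, was at 1.48, 4.55 and 2.60 CPM in WT and 4.71, 4.38 and 0.849 CPM in the others (log2 fold change 0.18, edgeR, adjusted p = 0.978). It turned negative with limma-voom and when WT replicate 1, eIF5A-KO replicate 1 or eIF5A-KO replicate 2 was left out. Fcgr3 is 96.3 percent identical over 512 bases to the inhibitory receptor gene Fcgr2b, which itself had 17 to 79 counts. Fcer1g, the ITAM-bearing gamma chain through which these receptors signal, was at 1.29, 4.02 and 2.54 CPM in WT and 6.23, 3.78 and 1.59 CPM in the libraries labelled eIF5A-KO (log2 fold change 0.53, edgeR, adjusted p = 0.918). Trem2, a lipid-sensing receptor that signals through Tyrobp, is named here after its values were seen, because it had the largest positive log2 fold change of the tested members. Trem2 was at 0.710, 1.75 and 1.53 CPM in WT and at 6.48, 3.96 and 0.453 CPM in the libraries labelled eIF5A-KO, so that the latter genotype held both its highest and its lowest values. The log2 fold change of Trem2 was 1.36 ± 0.74 (SE; 95% CI -0.31 to 3.03; edgeR, adjusted p = 0.809), and it was 0.68 without eIF5A-KO replicate 1 and 1.87 without eIF5A-KO replicate 3.

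The 3 chains of complement C1q, the recognition molecule of the classical complement pathway, are each needed for the assembled protein. Their genes lie side by side on the minus strand of chromosome 4 in mm10, with C1qb at chr4:136880129-136886187, C1qc at chr4:136889804-136893065 and C1qa at chr4:136895917-136898803. C1qa was at 1.29, 3.76 and 2.48 CPM in WT and at 5.32, 3.02 and 0.396 CPM in the libraries labelled eIF5A-KO. C1qb was at 1.81, 2.81 and 2.12 CPM in WT and at 6.17, 3.55 and 0.510 CPM in the others. C1qc, given after its values were seen, was at 1.03, 1.91 and 1.59 CPM in WT and at 3.42, 2.72 and 0.510 CPM. For each chain the highest library was eIF5A-KO replicate 1 and the lowest was eIF5A-KO replicate 3, with all WT libraries between, and the summed C1q level differed 10.5-fold between these replicates of 1 genotype. The log2 fold changes were 0.19 for C1qa, 0.57 for C1qb and 0.51 for C1qc (edgeR, adjusted p = 0.936 to 0.981). For C1qa the sign was negative in 6 of 15 other settings, among them -0.53 without eIF5A-KO replicate 1, and for C1qb in 2 of 15.

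**Figure D3:**
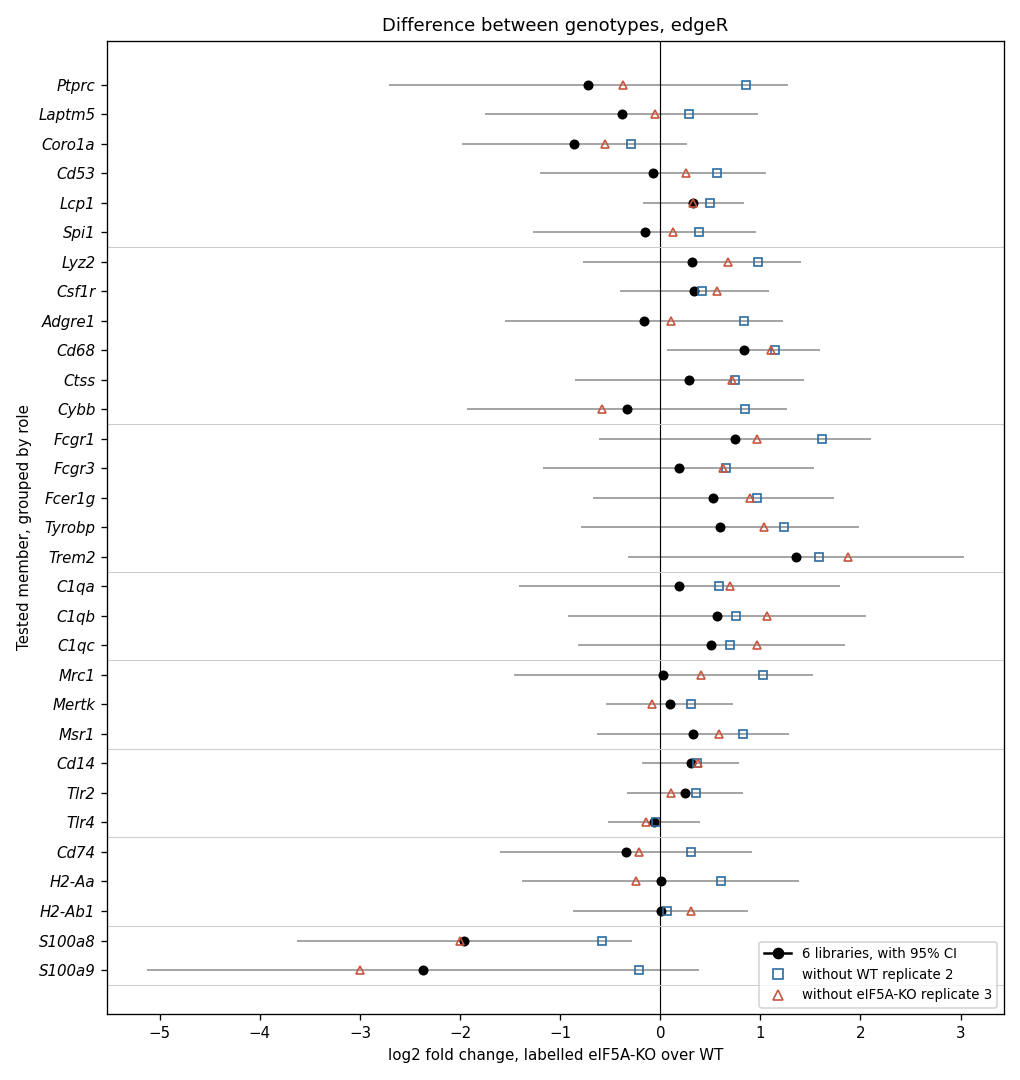
Log2 fold change of eIF5A-KO over WT for each tested member (black points, bars 95% CI, edgeR on 6 libraries), with the value without WT replicate 2 (blue squares) and without eIF5A-KO replicate 3 (red triangles). The intervals of all members but Cd68 and S100a8 include 0, and S100a9 moves from -2.37 to -0.21 without WT replicate 2.

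Scavenger and clearance receptors take up modified proteins, haemoglobin and dying cells. Mertk, a tyrosine kinase that binds dying cells and that cells other than leukocytes also express, departed from the order of the macrophage genes. It was at 29.4, 60.9 and 52.3 CPM in WT and 41.9, 47.8 and 62.4 CPM in the libraries labelled eIF5A-KO, where replicate 3 was the highest (log2 fold change 0.09, edgeR, adjusted p = 0.976; negative without WT replicate 1 or without eIF5A-KO replicate 3). Msr1, the macrophage scavenger receptor, kept the common order, with 2.00, 5.08 and 2.48 CPM in WT and 5.13, 4.61 and 2.43 CPM in the others (log2 fold change 0.33, edgeR, adjusted p = 0.945). Cd163, the haemoglobin scavenger receptor of resident macrophages, had 13, 31 and 8 counts in WT and 7, 6 and 3 in the libraries labelled eIF5A-KO. Its levels of 0.839, 1.64 and 0.472 CPM lay above the 0.428, 0.355 and 0.170 CPM of the others, without overlap, but it did not pass the filter on low counts and has no main test. With no filter its log2 fold change was -1.34 (edgeR, unadjusted p = 0.00908, adjusted p = 0.356). Marco had at most 1 count in a library. The mannose receptor Mrc1 had a log2 fold change of 0.03, which was 1.03 without WT replicate 2 and -0.47 without eIF5A-KO replicate 1.

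The summed level of the pattern recognition receptors was 53.6, 52.6 and 43.0 CPM in WT and 48.9, 52.6 and 55.9 CPM in the libraries labelled eIF5A-KO, a 1.30-fold range over all 6. Tlr4, which binds bacterial lipopolysaccharide and is expressed by many stromal and muscle cells, had the highest CPM of the group, with 34.9, 31.0 and 25.2 CPM in WT and 23.9, 30.9 and 32.3 CPM in the others (log2 fold change -0.06, edgeR, adjusted p = 0.977; positive without WT replicate 1 or without eIF5A-KO replicate 1). Cd14, the lipopolysaccharide co-receptor, was at 13.0, 12.7 and 9.44 CPM in WT and 16.9, 13.6 and 13.0 CPM in the libraries labelled eIF5A-KO (log2 fold change 0.30, edgeR, adjusted p = 0.879). Its lowest value in the latter, 13.02 CPM, was just under the highest WT value, 13.04 CPM, and with DESeq2's size factors or on the FPKM scale the genotypes did not overlap. Tlr2 had a log2 fold change of 0.25, and the beta-glucan receptor gene Clec7a had 2 to 8 counts. In the MHC class II group, which presents peptides to T cells, H2-Ab1 was at 5.55, 4.82 and 2.95 CPM in WT and 4.89, 6.09 and 2.38 CPM in the others, with a log2 fold change of 0.00 (edgeR, adjusted p = 0.999) and a sign that changed in 9 of 16 other settings. Cd74, the invariant chain that accompanies class II molecules, was at 0.645, 3.76 and 2.01 CPM in WT and 2.32, 1.36 and 1.36 CPM in the libraries labelled eIF5A-KO (log2 fold change -0.34, edgeR, adjusted p = 0.953; 0.31 without WT replicate 2).

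The neutrophil genes showed the steepest contrast between libraries. S100a8 and S100a9 encode the calprotectin subunits that fill the cytoplasm of neutrophils. S100a8 was at 2.26, 16.3 and 3.24 CPM in WT and at 0.794, 2.66 and 1.92 CPM in the libraries labelled eIF5A-KO. WT replicate 2 held 62.9 percent of its counts, WT replicate 1 lay within the range of eIF5A-KO, and WT replicate 3 lay above it. Its log2 fold change was -1.96 ± 0.74 (SE; 95% CI -3.62 to -0.30; edgeR, unadjusted p = 0.0221, adjusted p = 0.608), which made it the 1 member past the study's criterion, and it was -0.58 without WT replicate 2 (edgeR, unadjusted p = 0.233). S100a9 had 1, 503 and 74 counts in WT and 7, 33 and 59 in the libraries labelled eIF5A-KO, so that WT held both the highest and the lowest value, the latter below the limit of 3 counts. The log2 fold change of S100a9 was -2.37 ± 1.22 (SE; 95% CI -5.12 to 0.37; edgeR, adjusted p = 0.805) and -0.21 without WT replicate 2. Of 11 granulocyte and mast cell genes on a fixed list outside the 39, 8 were also highest in WT replicate 2; those named here were singled out after their values were seen. Neutrophil elastase, Elane, had 0, 316 and 24 counts in WT and 1, 24 and 43 in the others, and myeloperoxidase, Mpo, had 2, 274 and 26 in WT and 3, 29 and 32. WT replicate 2 held 77.5 percent of the Elane counts and 74.9 percent of the Mpo counts, and of Ngp, Ltf, Camp, Cxcr2 and Ly6g it held 40.0 to 77.3 percent. The eighth, Fcer1a, a chain of the mast cell IgE receptor, was spread more evenly, with 5, 14 and 10 counts in WT and 3, 10 and 2 in the libraries labelled eIF5A-KO. The other 3 were highest elsewhere: the mast cell proteases Mcpt4 and Cpa3, with 20.0 and 23.7 percent of their counts in WT replicate 2, and Siglecf, with at most 3 counts in a library. The 2 lymphocyte genes among the members had few counts: the T cell receptor complex gene Cd3e had 1 count in all 6 libraries together, and the B cell gene Cd79a had 6, 3 and 11 counts in WT and 4, 9 and 10 in the libraries labelled eIF5A-KO. Of 13 further lymphocyte genes only Lck, a kinase of T cells, was tested, with 39 to 60 counts and a log2 fold change of 0.00 (edgeR, adjusted p = 0.999).

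**Figure D4:**
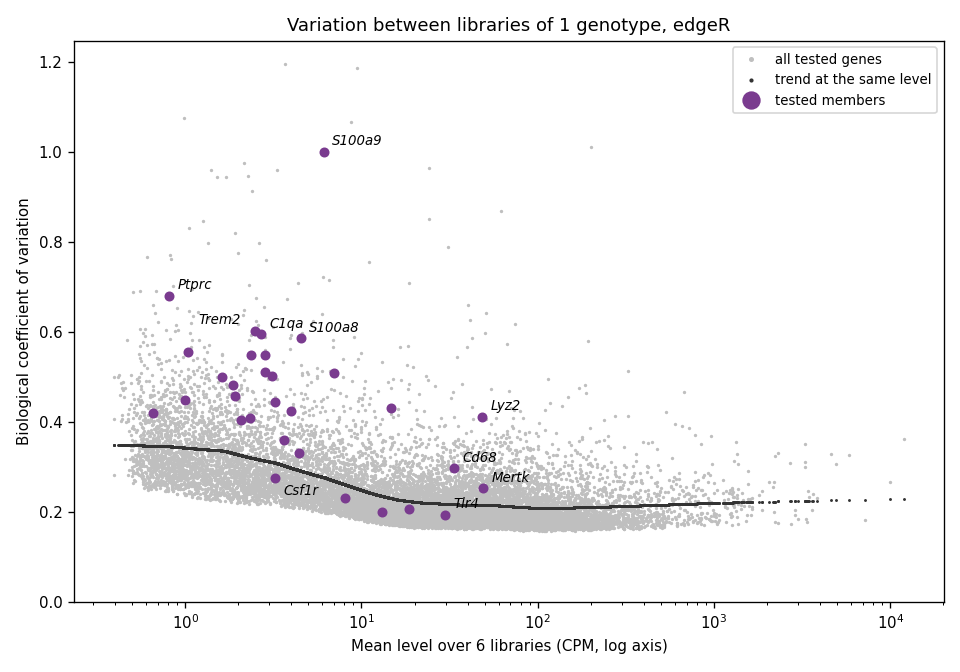
Biological coefficient of variation (vertical axis, edgeR, the spread between libraries of 1 genotype beyond counting error) against mean level in CPM (log axis) for all tested genes (grey), the 31 tested members (purple) and the trend at the same level (black). Of the members, 26 lie above the trend, and Tlr4 and Csf1r lie below it.

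Variation within a genotype was set against the trend over all genes of similar level. The members' median biological coefficient of variation, the spread between libraries of 1 genotype that counting does not account for, was 0.445, where the trend at the same level was 0.310. Of the 31, 26 (83.9 percent) were above the trend, compared with 31.9 percent of all tested genes. Other lists had high shares too, with 66.7 percent of the other leukocyte genes, 10 of 10 myogenic and 8 of 10 endothelial markers above it. The 5 members below it were Csf1r, Lcp1 and the 3 tested pattern recognition receptors. Over the 6 libraries, the highest level of the median member was 5.20 times its lowest, against 1.78 times for the median gene, and 23 members (74.2 percent) spanned more than 3-fold, against 14.3 percent of all genes. Unlike the trend, these spans are not matched for level, and counting error widens the range of a gene at low level. The members share their libraries, so these counts describe a common order of libraries and not independent genes.

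Other leukocyte genes were 97 from fixed lists that exclude the members. Of these, 57 were tested, with 34 positive and 23 negative log2 fold changes and a median of 0.15, and none had an adjusted p under 0.05 in edgeR. WT replicate 2 was above the other WT libraries in 44 (77.2 percent), and eIF5A-KO replicate 3 below the others of its genotype in 35 (61.4 percent). At an unadjusted p under 0.05 there were 3 higher and 2 lower genes, against 2.74 and 4.02 percent of all genes. Gpnmb, a lysosomal glycoprotein of macrophages that other cells also express, was at 186, 201 and 157 CPM in WT and at 547, 369 and 203 CPM in the libraries labelled eIF5A-KO (log2 fold change 1.04, edgeR, unadjusted p = 0.00904, adjusted p = 0.495). Csf2rb, the shared beta chain of the GM-CSF and interleukin receptors, and the costimulatory ligand Cd80 had log2 fold changes of 0.55 and 0.77 (edgeR, adjusted p = 0.560 for both). The mast cell genes Mcpt4 and Cpa3 had log2 fold changes of -1.34 and -1.09, with at most 1.24 CPM in any library (edgeR, adjusted p = 0.477 and 0.555). Mcpt4 had 15, 11 and 16 counts in WT and 3, 5 and 5 in eIF5A-KO, and Cpa3 had 15, 18 and 21 and 8, 9 and 5. Both passed the filter on low counts through the WT libraries alone, so neither their calls nor their lack of overlap is independent of the filter. In 8 of the 57 genes the genotypes did not overlap, against 12.5 percent of all genes: these 5, Cd40 and Slc11a1 with higher values and Syk with lower values.

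Markers of other cells also differed among the libraries, and their part in the order of the leukocyte genes was not tested. All 10 myogenic markers were tested, 1 with a positive and 9 with a negative log2 fold change, and 3, Pax7, Myog and Chrna1, were lower at an unadjusted p under 0.05 in edgeR, against 4.02 percent of all genes. Their sum was 757.5, 1939 and 1347 CPM in WT and 1271, 917.6 and 707.3 CPM in the libraries labelled eIF5A-KO, with WT replicate 2 highest and eIF5A-KO replicate 3 lowest, while the summed level of the 39 genes was highest in WT replicate 2 and lowest in WT replicate 1. The 10 endothelial markers, all with positive log2 fold changes and 1, Emcn, higher at an unadjusted p under 0.05 in edgeR, summed to 1483 to 3020 CPM in WT and 2599 to 3832 CPM in the others, with eIF5A-KO replicate 3 highest. The 8 mural cell markers summed to 370.9 to 627.9 CPM in WT and 721.8 to 783.7 CPM in the libraries labelled eIF5A-KO, and 4 of them were higher at an unadjusted p under 0.05 in edgeR, against 2.74 percent of all genes. Among these 4, Myh11, the smooth muscle myosin heavy chain, had an adjusted p under the threshold, as 3 of all genes did, with a log2 fold change of 1.51 (edgeR, adjusted p = 0.0486). That call was lost with DESeq2's size factors (0.0511), library size alone (0.115), at least 10 counts in every library (0.0722) and limma (0.0896 to 0.113), and when any library but WT replicate 1 was left out (0.0792 to 0.315). The 10 fibroblast markers, of which Col1a1 and Col1a2 were higher at an unadjusted p under 0.05 in edgeR, summed to 2919 to 3565 CPM in WT and 2872 to 3663 CPM in the others, and no marker of these 4 lists was at 0. The 5 erythroid genes summed to 61.69 to 137.4 CPM in WT and 82.94 to 137.4 CPM in the libraries labelled eIF5A-KO. Gapdh, a glycolytic enzyme gene often used as a reference, was at 257.61, 15.459 and 101.74 CPM in WT and at 292.82, 276.82 and 214.28 CPM in the libraries labelled eIF5A-KO, so that WT replicate 2 stood apart there too, as the lowest. Mitochondrial transcripts took 5.75 percent of the counts of WT replicate 1 and 2.11 to 3.50 percent elsewhere.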

How the data were processed

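The authors prepared RNA-seq libraries from total RNA with a NEBNext Ultra kit and mapped the reads to mm10 with HISAT; the version, annotation, strand use and handling of multi-mapped reads are not given in the sources used here. The authors deposited unnormalized read counts per gene, and FPKM, whose denominator equalled the median-of-ratios size factor times the geometric mean of the totals.

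Counts of all genes were fitted with edgeR 4.0.16 (R 4.3.3; filterByExpr, TMM factors, quasi-likelihood F test, prior count 2, no covariate), with Benjamini-Hochberg adjustment over 14679 genes. The scripts were tested on simulated data. Limits from 3 counts cover counting error only. Alternatives were DESeq2 1.42.0, limma 3.58.1, other factors and filters, a replicate block and each library left out. No duplicated libraries were found by chi-square tests.

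The members and lists were chosen with earlier results of these data known. Values in each library were given for the 2 members of each role group with the highest mean CPM, members with an unadjusted p under 0.05 or without overlap, and Ptprc, Lyz2, Csf1r and Adgre1; of other leukocyte genes, those with an unadjusted p under 0.05 were named. Role sums were added after the data were seen. Near-identical genes were found by aligning GENCODE transcripts with blastn. Coro1a overlaps Bola2 and Csf1r overlaps Hmgxb3, each on the opposite strand, and without strand the reads from such overlaps cannot be told apart.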

Additional observations from a re-analysis of the deposited data

How the results depend on the processing

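Of the 31 tested members, 16 kept the sign of their log2 fold change in the 15 or 16 other settings in which they were tested, and 15 did not. The median log2 fold change stayed positive, from 0.01 without eIF5A-KO replicate 1 to 0.60 without WT replicate 2. With each library left out in turn, 17 to 27 members had positive and 4 to 16 negative log2 fold changes, 0 to 4 were higher and 0 to 2 lower at an unadjusted p under 0.05 (all genes 1.23 to 4.72 and 2.66 to 5.44 percent), 1 to 3 met the 2-fold criterion (all genes 1.87 to 2.99 percent), none had an adjusted p under 0.05 (edgeR), and 2 to 10 did not overlap, where 16.5 to 27.4 percent of all genes did not. Of the 58 to 64 other leukocyte genes tested in these fits, 2 to 8 were higher and 1 to 13 lower at an unadjusted p under 0.05, and none had an adjusted p under 0.05.

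With no filter, edgeR gave an adjusted p under 0.05 to 249 of 26956 genes with a count, in place of 3, and to 4 members: Cd68 (0.85, adjusted p = 0.0252), Trem2 (adjusted p = 0.0290), S100a8 (-1.94, adjusted p = 2.0e-06) and S100a9 (-2.35, adjusted p = 9.0e-11). In that fit 2 of 38 members were higher and 4 lower at an unadjusted p under 0.05 (all genes 2.51 and 3.81 percent), 4 met the criterion (2.37 percent), 2 did not overlap (9.55 percent), and of the 91 other leukocyte genes 7 were higher and 12 lower at an unadjusted p under 0.05 and 5 were past the adjusted threshold, Gpnmb among them (1.05). The cause was not tested. Over all genes, an adjusted p under 0.05 went to 92 with DESeq2, 24 with the replicate block and 56 without WT replicate 1, and to 0 with DESeq2's size factors, library size alone, at least 10 counts in every library, limma or any other library left out. Library size alone left 0 members higher at an unadjusted p under 0.05 (all genes 2.08 percent). DESeq2 gave 2 of 31 higher and 2 past the criterion (all genes 2.88 and 1.81 percent). With limma-voom and limma on FPKM, 0 were lower and 0 past the criterion (all genes 3.7 to 3.81 and 0.402 to 1.81 percent). Cd14 alone did not overlap (1 member) with DESeq2's size factors, at least 10 counts in every library, DESeq2 or FPKM, where 12.4 to 12.5 percent of all genes did not. With at least 10 counts in every library, 0 of 41 other leukocyte genes were lower at an unadjusted p under 0.05 (all genes 3.97 percent).

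Several log2 fold changes changed sign. H2-Ab1 was at -0.0027 with upper-quartile factors, -0.0299 with library size alone, -0.0564 with limma-voom, -0.0186 with limma on log2(FPKM + 1) and -0.0404 on log2(FPKM + 0.1). C1qa was at -0.344, -0.0248 and -0.232 in these 3 limma fits, Adgre1 at 0.0741 with limma-voom and 0.0757 on log2(FPKM + 0.1), and Fcgr3 at -0.0483 and C1qb at -0.0098 with limma-voom. Without 1 library, the ranges were Cd53 -0.32 to 0.56, Spi1 -0.58 to 0.39, Cybb -0.72 to 0.85, Mrc1 -0.47 to 1.03, H2-Aa -0.35 to 0.60, Ptprc -1.14 to 0.85, Laptm5 -0.83 to 0.28, Adgre1 -0.49 to 0.83, Fcgr3 -0.13 to 0.66, C1qa -0.53 to 0.70, C1qb -0.14 to 1.07, Mertk -0.15 to 0.31, Tlr4 -0.179 to 0.0682, Cd74 -0.74 to 0.31 and H2-Ab1 -0.27 to 0.30.

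Same-numbered libraries correlated at 0.103, -0.221 and 0.113 in their deviations from the genotype means. With 3 libraries per genotype, such correlations cannot settle whether the numbers pair the samples. With the replicate number as a block, 19 members had positive and 12 negative log2 fold changes, and none had an adjusted p under 0.05. Of 57 other leukocyte genes in that fit, 5 were higher and 4 lower at an unadjusted p under 0.05 (all genes 2.47 and 3.49 percent). Adgre1 was at 0.0442, C1qa at -0.115 and H2-Ab1 at -0.0392. Not every library correlated best with its own number. At this depth, 8 members did not pass the filter on low counts and have no main test.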
